A study of Mus musculus with 36 samples.

Results

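Cytosolic ribosomal protein genes were examined in skeletal muscle of a mouse model of nemaline myopathy. They were taken as every probe set of the Affymetrix MG_U74Av2 array annotated to a single mouse symbol of the form Rpl or Rps with a number, or Rplp0, Rplp1, Rplp2 or Rpsa. The Rps6k kinases were left out, and a gene with several was represented by the one brightest on average. This gave 35 genes of the 8251 genes with a single-symbol probe set, 17 of them of the large and 18 of the small subunit. Of these, 31 were bright enough to be tested, which required a scaled signal of 100 or more on at least 6 of the 36 arrays. The genes that did not reach it were Rps20, Rpl39l, Rps15 and Rps27l. Rplp1, Rpl3, Rps2 and Rpl12 were among the genes of 39 ribosomal probe sets that name several symbols and were left out by the rule, and neither Rplp2 nor Rpl3l was among the members.

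The ribosome is the particle that reads messenger RNA and links amino acids into protein. Its small subunit decodes the message and its large subunit forms the peptide bond, each being built of ribosomal RNA and a set of proteins needed in equal amounts. In muscle, as in other tissues, the messages of these proteins are among the most abundant of the cell, and many begin with a run of pyrimidines through which their translation follows nutrient and growth signals.

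The groups were transgenic muscle and wild-type muscle, at 10 and at 7 months of age. The 5 muscles were the diaphragm (DIA), the main muscle of breathing, and 4 hindlimb muscles, namely extensor digitorum longus (EDL), gastrocnemius (GAS), plantaris (PLT) and tibialis anterior (TA). Each genotype had 4 arrays in 3 of the muscles (DIA, GAS and TA), 2 at each age, and 3 arrays in EDL and plantaris, where a single array stood for 10 months. The label of that transgenic EDL array says that its raw file was recovered only in part. Each array was hybridised with RNA pooled from 3 to 5 mice, starting from about 8 µg of total RNA. The transgenic mice carry slow alpha-tropomyosin, a thin-filament protein of slow muscle fibres, as the transgene. The wild-type mice are called normal in the sample titles and wild type in the descriptions. The labels name neither the strain, the form of the transgene nor the promoter that drives it. The labels do not tell whether replicates are separate pools, so p-values measure only the spread between arrays, which may be technical. In muscle homogenate, fewer cells of a type and less RNA per cell cannot be told apart.

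Values are MAS5 signals (one brightness per probe set) scaled on each array to a trimmed mean of 500, and changes are differences of log2(signal + 50) with their standard errors. Tests were made with limma across 9322 probe sets with Benjamini-Hochberg adjustment, and a call is an adjusted p under 0.05. Between 1 probe set and another, signals have no common scale, so a brighter gene is not thereby a more abundant one. The ratio of the 3' to the 5' Gapdh probe sets ran between 0.854 and 3.69, and 2 arrays, both wild type, lay above 3. Liver-type transcripts were present in the diaphragm. The summed signal of 13 hepatocyte markers was 5963 to 126600 in transgenic diaphragm and 47440 to 170100 in wild-type diaphragm, against 824.5 to 3115 in transgenic limb muscle and 1039 to 2911 in wild-type limb muscle. In diaphragm 0 of these 13 markers had a mean under 100 in either genotype, against 11 in transgenic and 10 in wild-type limb muscle.

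The start regions of the genes were looked at because these genes moved together over the arrays, as described further on. RefSeq start regions on GRCm38.p6 were found for 28 of the 35 genes. A pyrimidine run was counted as a C followed by at least 4 bases that are each C or T on the transcribed strand. That C had to lie within 5 bases of the annotated start, but the stretch of C and T could begin earlier. Such a run was found in 11 of the 28 genes (39.3%), against 21.2% of 27025 genes. The letters CCGGAA on either strand, a core motif of ETS-family factors, were found within 300 bases in 17 of the 28 genes (60.7%), against 16.7% of all. The 2 motifs can overlap. These matches describe the letters only. Below are 80 bases, 60 before and 20 after the annotated start, on the transcribed strand, 5′ to 3′, of 6 genes that recur in the results. The capitals mark the pyrimidine run, from the counted C onward, or CCGGAA, which on the other strand reads as its reverse complement. In Rpl7a the stretch of C and T begins before the capitals.
Rplp0 (chr5:115559407-115559486, plus strand, neither motif in the window): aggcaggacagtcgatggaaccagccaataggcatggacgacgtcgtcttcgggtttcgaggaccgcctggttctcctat
Rpl6 (chr5:121204441-121204520, plus strand, CCGGAA): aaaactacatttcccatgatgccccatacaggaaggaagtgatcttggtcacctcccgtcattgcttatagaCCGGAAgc
Rpl7a (chr2:26910747-26910826, plus strand, pyrimidine run): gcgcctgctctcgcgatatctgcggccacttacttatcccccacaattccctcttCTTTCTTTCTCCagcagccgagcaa
Rps18 (chr17:33955646-33955725, minus strand, pyrimidine run): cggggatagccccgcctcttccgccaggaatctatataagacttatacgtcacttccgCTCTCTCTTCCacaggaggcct
Rps10 (chr17:27635225-27635304, minus strand, both): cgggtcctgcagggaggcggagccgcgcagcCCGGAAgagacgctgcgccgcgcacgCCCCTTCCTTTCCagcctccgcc
Rps7 (chr12:28635934-28636013, minus strand, 2 matches of CCGGAA on the other strand): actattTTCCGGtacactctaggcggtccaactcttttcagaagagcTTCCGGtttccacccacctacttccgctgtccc

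The members were divided by mean signal into a bright and a dim class. A mean signal of 500 or more was reached by 21 genes, 10 of the large and 11 of the small subunit, and these 21 were at 100 or more on all 36 arrays. This limit of 500 was chosen after the levels had been seen. The highest mean signals were those of Rpl41, the smallest protein of the ribosome, with 27908, Rps24 with 21104 and Rplp0 with 21037. The lowest of all 35 were Rpl39l at 47.4, Rps15 at 39.2 and Rps27l at 31.8. Just inside the limit stood Rpl22 at 581.5 and just outside it Rpl13a at 279.2. The paralogues, which are copies of another ribosomal protein gene, were mostly dim: Rps4l averaged 124.3 and Rpl7l1, whose product acts in ribosome assembly, also averaged 124.3, while Rpl39l and Rps27l were not tested. The X-linked Rps4x was bright at 10009. The Rps24 probe set carries the same accession as a probe set of Rpl7 in the annotation, and the second Rps24 probe set averaged 142.4, so the gene behind the Rps24 values is uncertain.

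The bright members varied less over all arrays than the typical probe set. Over the 36 arrays the standard deviation of log2(signal + 50) had a median of 0.26 among the 21 genes, against 0.39 among the 3434 tested probe sets of 500 or more. It was 0.34 among the 179 tested probe sets at least as bright as the median bright member. Within groups the median standard deviation was 0.25 for the bright genes, against 0.27 for these 179, so between replicate arrays the bright genes were about as variable as other probe sets of like signal. The steadiest was Rpl7, a large subunit protein, with signals between 7449 and 11689. The most variable of the bright genes were Rpl37a, between 3474 and 13057, and Rps27, between 507.9 and 1715. The dim tested genes had a median standard deviation of 0.42, and Rpl32 spanned 26.8 to 500.6.

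No ribosomal protein gene passed the test of transgenic against wild-type muscle in the fit without a block. Rps29 passed with the replicate number or the scan day as a block, and Rpl32 with the scan day. Both blocks also called more of all probe sets, as counted in the last section. In the mean of the 5 muscles limma called 0 of 31, while 109 of the 9322 probe sets (1.17%) were. At an unadjusted p under 0.05 there were 2 members, Rpl32 and Rps29, against 17.3% of all probe sets. Of the 31 members 12 lay above and 19 below 0, with a median log2 change of -0.03. The 21 bright genes had a median log2 change of -0.005, with 10 above and 11 below 0, beside -0.03 over all tested probe sets and 0.05 over those of 500 or more. Their changes lay between -0.28 and 0.20, and their 95% intervals between -0.57 and 0.43. The large subunit had a median of 0.01 over its 10 bright genes and the small subunit -0.03 over its 11.

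The stalk protein Rplp0, which recruits the elongation factors to the ribosome, had signals of 17604, 20412 and 27768 (lowest, median and highest) on 18 transgenic arrays, against 14401, 21436 and 26632 on 18 wild-type arrays. These ranges overlapped almost wholly. The log2 change was 0.05 ± 0.06, with a 95% interval of -0.08 to 0.17. Rpsa, a small subunit protein also known as a laminin receptor precursor, had a change of -0.04 ± 0.09. Rps3, which lines the entry of the message into the small subunit, had signals of 7117, 9046 and 13044 in transgenic and 5859, 8199 and 12313 in wild-type muscle. Its change of 0.13 ± 0.07 did not pass (adjusted p = 0.362, limma).

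At the ends of the range stood Rps27 and Rpl22 among the bright genes. Rps27, a zinc-binding protein of the small subunit, had signals of 507.9, 716.2 and 1253 on the transgenic arrays, against 593.8, 839.5 and 1715 on the wild-type arrays. The arrays of both genotypes were mixed, and the change was -0.28 ± 0.14 (adjusted p = 0.308, limma). Rpl22, an RNA-binding protein of the large subunit, had 447.2, 586.1 and 861.0 in transgenic and 269.4, 540.3 and 885.5 in wild-type muscle. Its change was 0.20 ± 0.11 (adjusted p = 0.353, limma), and its second, dimmer probe set, with a mean of 252.8, gave -0.42 ± 0.20, so the probe sets of this gene differ in sign.

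The 2 largest differences among the members were those of dim genes. Rps29, a small zinc-binding protein of the small subunit, had 127.5, 227.1 and 336.1 on the transgenic arrays, against 196.5, 275.0 and 471.0 on the wild-type arrays. Its change of -0.29 ± 0.09 had the smallest adjusted p of all members, 0.0867 by limma. With the scan day as a block it was -0.43 (adjusted p = 0.023) and with the replicate number as a block -0.29 (adjusted p = 0.031), both past the threshold. Its second probe set, with a mean of 96.3, gave -0.21 ± 0.19. Rpl32, a large subunit protein, had 26.8, 107.8 and 250.5 in transgenic and 38.2, 148.5 and 500.6 in wild-type muscle. The change of -0.48 ± 0.20 did not pass (adjusted p = 0.226, limma), and with the scan day as a block it was -0.86 and passed (adjusted p = 0.020). Rps13 stood at the other end of the dim genes, with 0.17 ± 0.18.

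**Figure D1:**
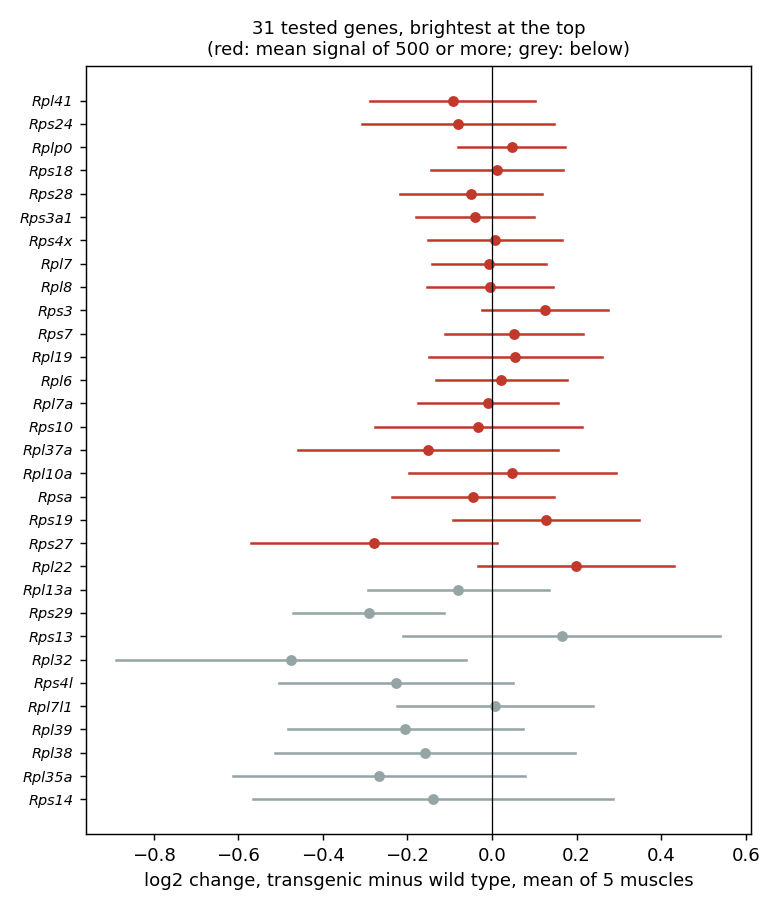
Log2 change of transgenic minus wild-type muscle, averaged over the 5 muscles, for the 31 tested genes, ordered by mean signal with the brightest at the top. Points are limma estimates and lines their 95% intervals; the bright genes (red) lie between -0.28 and 0.20, and the intervals of Rps29 and Rpl32 (grey) leave out 0 before adjustment.

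Within single muscles limma called no member either, against 3.42% of all probe sets in diaphragm, 0.0107% in EDL, 0.15% in tibialis anterior and 0% in gastrocnemius and plantaris. At an unadjusted p under 0.05 there were 3 members in diaphragm (12.6% of all probe sets), 1 in EDL (6.45%), 0 in gastrocnemius (2.24%), 1 in plantaris (1.87%) and 2 in tibialis anterior (6.35%). The medians of the 21 bright genes were 0.11 in diaphragm, 0.04 in EDL, 0.02 in gastrocnemius, -0.14 in plantaris and -0.03 in tibialis anterior. In diaphragm 17 of the 21 were above 0, and over all tested probe sets of 500 or more the median was 0.15. In plantaris 18 of the 21 were below 0, with a median of -0.005 over the probe sets of 500 or more. The test of a genotype change that differs between muscles called no member either, against 3 of 9322 probe sets (0.0322%). By limma 0 members had an unadjusted p under 0.05, where 4.01% of all probe sets did, and the smallest was 0.121, for Rpl32.

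In the diaphragm, Rpl32 had signals of 26.8, 49.0, 62.0 and 174.7 on the transgenic arrays, against 124.8, 144.9, 277.5 and 500.6 on the wild-type arrays. Of the transgenic arrays 3 lay below every wild-type array. The change was -1.25 ± 0.42 (adjusted p = 0.119, limma), and with the scan day as a block it was -1.80 (adjusted p = 0.030). Rps4l, the paralogue of Rps4x, had 90.1, 91.2, 124.4 and 127.3 in transgenic and 132.6, 152.1, 165.1 and 212.9 in wild-type diaphragm. It was the only member whose genotypes did not overlap there, where 4.68% of all probe sets did not, and its change was -0.44 ± 0.28 (adjusted p = 0.598, limma). Rps3 had 8657, 8682, 9446 and 13044 in transgenic and 6901, 7399, 7736 and 9022 in wild-type diaphragm, with a change of 0.34 ± 0.15 (adjusted p = 0.330, limma). Beside these values, 11 of 13 tested hepatocyte markers were called lower in transgenic diaphragm, with a median of -2.95, where 2.23% of all probe sets were, and their part in these differences was not tested.

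In EDL the arrays did not overlap for 4 of the 31 tested members, a share near the 12.7% of all probe sets. Rps29 had 189.7, 199.9 and 201.7 in transgenic and 284.2, 291.0 and 471.0 in wild-type EDL, all transgenic arrays being lower, with a change of -0.66 ± 0.21 (adjusted p = 0.514, limma). Rps7, a small subunit protein, had 7296, 7327 and 9716 in transgenic and 5711, 6753 and 6967 in wild-type EDL. Rps3 and Rpl7a were likewise higher on every transgenic array of EDL, with changes of 0.31 and 0.16.

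In plantaris Rps7 stood the other way round, with 8678, 9327 and 9681 in transgenic and 9782, 10403 and 11586 in wild-type muscle. The test of a genotype change that differs between muscles did not call Rps7 (unadjusted p = 0.479, limma). Rps18, a protein of the head of the small subunit, had 12127, 13551 and 14310 in transgenic and 14326, 15215 and 15832 in wild-type plantaris. Rps3a1 had 9911, 12030 and 12229 in transgenic and 12426, 12670 and 14800 in wild-type plantaris. Rps7, Rps18 and Rps3a1 were the 3 of 31 members whose arrays did not overlap, where 7.79% of all probe sets did not. Their changes were -0.20, -0.18 and -0.22, and the adjusted p of each of the 31 members in plantaris was 1. Rps19, a small subunit protein mutated in human Diamond-Blackfan anaemia, had 2086, 2222 and 3567 in transgenic and 1322, 1701 and 2143 in wild-type plantaris, with a change of 0.58 ± 0.26. In tibialis anterior Rpl22 had 470.8, 629.8, 763.5 and 788.0 in transgenic and 269.4, 362.2, 450.0 and 601.5 in wild-type muscle, with a change of 0.62 ± 0.24 (adjusted p = 0.663, limma). In tibialis anterior and gastrocnemius every member overlapped, where 2.9% and 1.54% of all probe sets did not.

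By limma, age and the change of genotype with age gave 0 calls among the members and among all probe sets (0%). At an unadjusted p under 0.05 there were 2 members for age, Rpsa and Rpl19, where 8.32% of all probe sets lay, and 0 for genotype by age, where 2.09% lay. In the difference of 10 minus 7 months 17 of the 21 bright genes were below 0, with a median of -0.07, beside -0.01 over the probe sets of 500 or more. Rpsa had 1634, 2469 and 3728 (lowest, median and highest) on 16 arrays at 10 months, against 2130, 2863 and 3646 on 20 arrays at 7 months. Its change was -0.26 ± 0.10 (adjusted p = 0.490, limma), the largest of the bright genes. Rpl19, of the large subunit, had 4350, 7284 and 10550 at 10 months and 6619, 8296 and 12252 at 7 months, with -0.22 ± 0.10. The difference of the genotype change between 10 and 7 months had a median of 0.14 over the bright genes, 18 of them above 0, beside 0.02 over the probe sets of 500 or more, and lay between -0.25 for Rps27 and 0.28 for Rpl10a.

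Among the comparisons of genotype, muscle and age, Rplp0 was the one member called, between wild-type muscles. Its signals were 14401, 16644, 17200 and 19210 in wild-type diaphragm, against 16985, 22514 and 26632 (lowest, median and highest) on 14 wild-type limb arrays. Of the diaphragm arrays, 2 lay below every limb array and 2 within their range. The log2 change of diaphragm minus the mean of the limb muscles was -0.46 ± 0.13 (adjusted p = 0.0107, limma), so Rplp0 fell in diaphragm relative to limb muscle. In transgenic muscle the signals were 17604, 19079, 20356 and 23132 in diaphragm, against 18661, 20876 and 27768 on 14 limb arrays.

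Rplp0 was the only one of 31 members called in this comparison, while 17.4% of all probe sets were, 8.88% as lower. The call was lost without the lowest diaphragm array, of 7 months and number 1, at -0.37 (adjusted p = 0.155), and after quantile normalization the change was -0.08 (adjusted p = 0.66). In the test over all 5 wild-type muscles Rplp0 was again the one member called (adjusted p = 0.046, limma), against 11.4% of all probe sets. That call did not hold with no filter, quantile normalization, median centring, the scan day as a block, either replicate number alone, 7-month arrays only, both genotypes together or the 2 arrays of high Gapdh ratio left out. With the replicate number as a block Rps28 and Rps29 were called as well (adjusted p = 0.027 and 0.048, limma). So they were with a random block for arrays of the same genotype, age and replicate number (adjusted p = 0.048 and 0.03, limma). The labels do not say whether such arrays share mice.

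**Figure D2:**
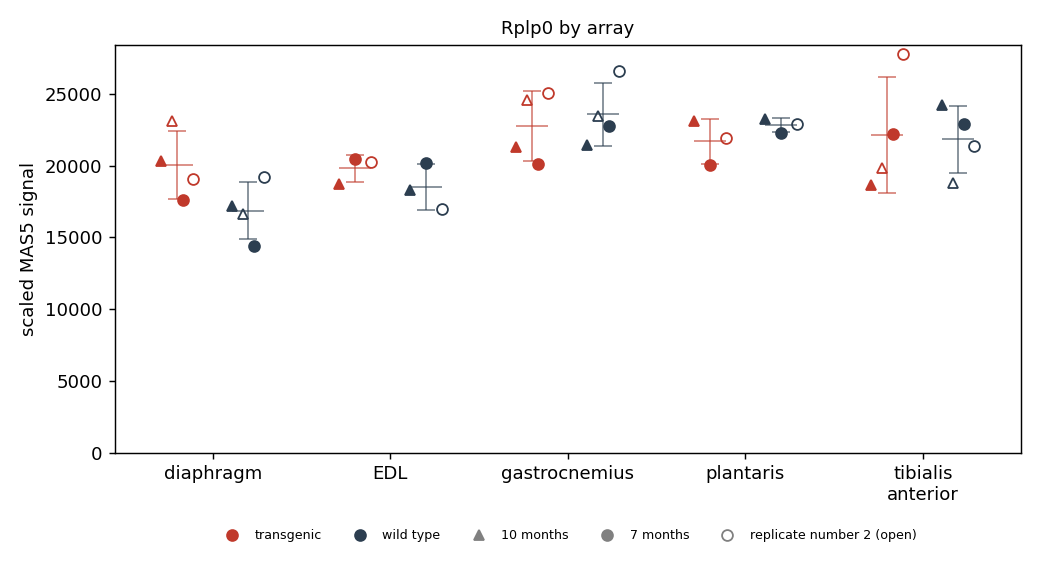
Scaled MAS5 signal of Rplp0 on each of the 36 arrays by muscle, transgenic in red and wild type in dark blue, triangles for 10 months, circles for 7 months and open symbols for replicate number 2. Bars are the mean ± SD of each muscle and genotype; the 4 wild-type diaphragm arrays lie between 14401 and 19210, and the 4 wild-type gastrocnemius arrays between 21471 and 26632.

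The other bright genes lay mostly on the same side in wild-type diaphragm without passing the test. Of the 21, 17 were below 0, with a median of -0.21, and 69.9% of all tested probe sets of 500 or more were below 0 as well, with a median of -0.25. All 10 bright genes of the large subunit were below 0, with a median of -0.24, while the small subunit had 7 of 11 below 0 and a median of -0.12. Rps24 had -0.41 ± 0.23 and Rpl10a -0.36 ± 0.24, while Rps27 at 0.25 ± 0.29 and Rps19 at 0.15 ± 0.22 stood highest. Among the dim genes Rpl39 had -0.48 ± 0.28, Rps29 -0.38 ± 0.18 and Rpl32 0.66 ± 0.41. No member had every diaphragm array below every limb array, where 2.93% of all probe sets did.

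Other transcripts moved with the diaphragm. All 13 tested hepatocyte markers were called higher in wild-type diaphragm, with a median of 5.98, where 791 of 9322 probe sets were called higher, and 7 of 11 macrophage markers were too, the summed signal of the 12 measured being 7429 to 10720 in wild-type diaphragm and 3603 to 6491 in wild-type limb muscle. Of 5 adipocyte markers 3 were called higher, of 3 erythroid markers 2 and of 9 slow fibre genes 4. Of 14 skeletal fibre genes 11 were called lower, with a median of -1.08, and their summed signal was 103300 to 174600 in wild-type diaphragm and 217300 to 373800 in wild-type limb muscle. The part of these transcripts in the difference of Rplp0 was not tested.

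Genes that work beside the ribosome gave the following counts in the mean of the 5 muscles. Over all tested probe sets 109 of 9322 (1.17%) were called there, 80 of them as higher. Of 27 tested cytosolic initiation genes 1 was called higher in transgenic muscle, with a median of 0.10 over the list. It was Eif4ebp1, which holds back the cap-binding initiation factor, at 0.46 ± 0.09 (adjusted p = 0.00408, limma). Of 11 elongation and termination genes, 48 ribosome biogenesis genes, 13 growth signalling genes, 5 ribosome partners and 60 mitochondrial ribosomal protein genes, 0 were called. The mitochondrial ribosomal proteins had a median of 0.11 with 51 of 60 above 0. Over the probe sets of 500 or more the median was 0.05, with 39.3% below 0. By muscle the list ran from -0.01 in plantaris, with 29 of 60 above 0, to 0.27 in diaphragm, with 55 of 60. In diaphragm the median over the probe sets of 500 or more was 0.15.

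In wild-type diaphragm against limb muscle, where 17.4% of all probe sets were called and 8.88% as lower, the counts of these lists were as follows. Eef1a1, which brings aminoacyl-tRNA to the ribosome, was higher by 1.11 ± 0.23, and its muscle paralogue Eef1a2 fell, at -0.64 ± 0.21 (adjusted p = 0.000859 and 0.0298, limma). Etf1, the release factor, fell with -0.97 ± 0.22, and of the 11 genes of this list 1 was called higher and 3 lower. Of the initiation genes 4 were lower, among them Eif2s2 at -1.12 ± 0.25, and 1 was higher, Pabpc1 at 0.69 ± 0.17. Of the 60 mitochondrial ribosomal protein genes 8 were called lower, with Mrps21 at -0.78 ± 0.22 and Mrpl23 at -0.77 ± 0.21, and the median of the list was -0.27, beside -0.25 over the probe sets of 500 or more. Of 48 ribosome biogenesis genes 2 were called lower, of 13 growth signalling genes 3 were, and of 5 ribosome partners 0 were called.

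The bright members moved together over the arrays. Over the 36 arrays, the Pearson correlation between pairs of the 21 genes had a median of 0.427, with 174 of 210 pairs above 0, against a median of 0.0342 between pairs of probe sets of 500 or more. It was 0.394 after the mean of each group was taken out, over the 32 arrays of groups with 2. These 16 groups hold an array of each replicate number, so differences between the numbers stay in this correlation. These correlations share the arrays and their scaling and are given as a description. Rpl6 followed the median of the others most closely, at 0.826, then Rps3 at 0.801 and Rps18 at 0.767. Those that followed least were Rps10 at 0.245, Rpl22 at 0.139, Rpl37a at 0.0488 and Rps27 at -0.156. The start regions of Rps10 and Rps18, shown above, both hold a pyrimidine run.

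Taking each bright gene relative to its own mean over the 36 arrays, the median of the 21 gives 1 value per array. By muscle it was highest in gastrocnemius, at 0.17 ± 0.17 (SD, n = 8), then plantaris at 0.07 ± 0.11 (n = 6), diaphragm at -0.07 ± 0.12 (n = 8), tibialis anterior at -0.09 ± 0.15 (n = 8) and EDL at -0.11 ± 0.08 (n = 6). The arrays of every pair of muscles overlapped, also those at the ends of this order, with -0.04 to 0.38 in gastrocnemius and -0.23 to -0.02 in EDL. In diaphragm the median of the 21 was -0.01 ± 0.07 in transgenic and -0.13 ± 0.14 in wild-type muscle (SD, n = 4 each). In plantaris it was 0.02 ± 0.10 in transgenic and 0.12 ± 0.10 in wild-type muscle (SD, n = 3 each).

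**Figure D3:**
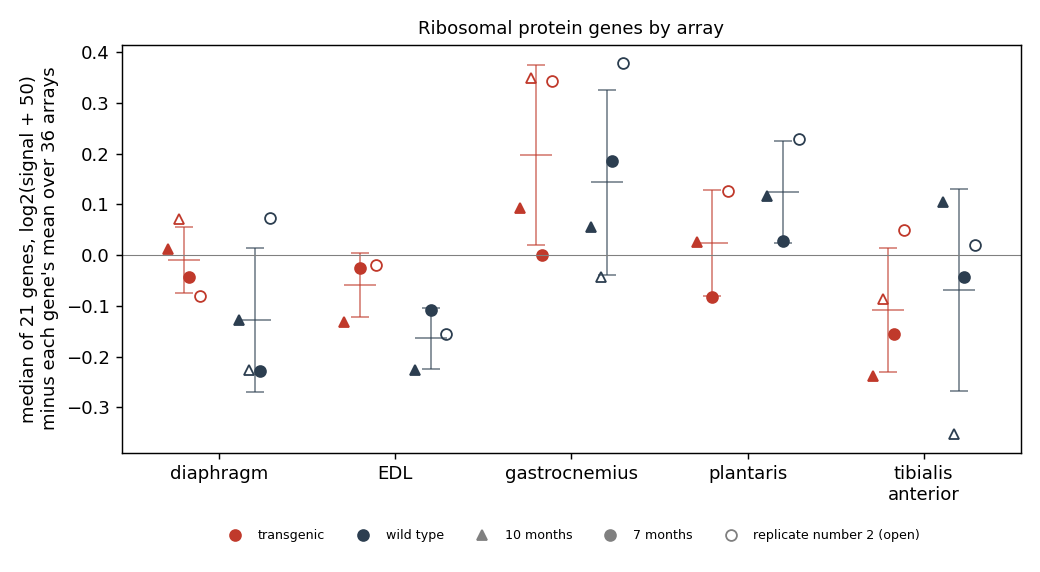
Median over the 21 bright genes of log2(signal + 50) relative to each gene's mean over the 36 arrays, 1 symbol per array, transgenic in red and wild type in dark blue, with triangles for 10 months, circles for 7 months and open symbols for replicate number 2. Bars are the mean ± SD. Gastrocnemius stands highest at 0.17 over both genotypes, and the arrays of every pair of muscles overlap.

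Among 6758 other tested genes, those most like this median over the 36 arrays were Fth1, an iron storage protein, with a correlation of 0.799, Lgals1, a galactose-binding lectin, with 0.704 and Eef2, the elongation factor that moves the ribosome along the message, with 0.651. Next came Arfgef1 at 0.648 and Chmp7 at 0.643. The median of the 6758 genes was -0.0378. Of the translation lists, Eif2b5 at 0.63 and Eif3k at 0.614 followed Eef2.

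More members were called between the replicate numbers of the sample titles than between the genotypes. Number 2 was compared with number 1, over 16 and 20 arrays, with the groups kept apart. By limma 10 of 31 members were called, 8 higher and 2 lower on arrays of number 2, where 42.9% of all probe sets were called, 18.6% as higher and 24.2% as lower. In the 16 groups with both numbers Rpl37a, a zinc-binding protein of the large subunit, averaged 6517 on number 2 and 4151 on number 1. The difference was 0.58 ± 0.11 (adjusted p = 0.000101, limma). Rps27 averaged 1040 and 707.9 in the same groups, a difference of 0.47 ± 0.12 (adjusted p = 0.00187, limma). Rps28 was higher by 0.31 ± 0.06 and in 15 of 16 groups, and Rpl41, Rps24, Rpl8, Rpsa and Rpl35a were higher as well. Rpl10a at -0.39 ± 0.10 and Rpl13a at -0.33 ± 0.09 were lower. The number marks no factor named in the labels. Its part in the differences described above is given by the values within each number and with the number as a block. The Gapdh ratio had a median of 1.18 (0.992 to 3.69) on arrays of number 2 and 0.953 (0.854 to 1.6) on arrays of number 1. The part of this ratio in the differences between the numbers was not tested.

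**Figure D4:**
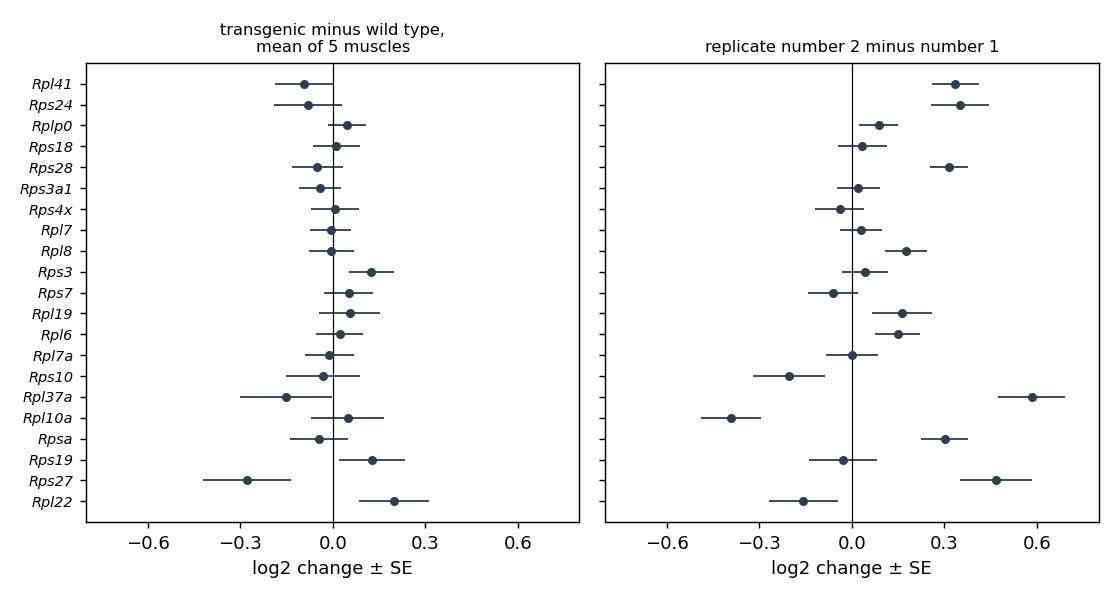
Log2 change ± SE of the 21 bright genes, for transgenic minus wild-type muscle in the mean of 5 muscles (left) and for arrays of replicate number 2 minus number 1 (right), brightest gene at the top. Rpl37a is at -0.15 on the left and 0.58 on the right, and Rps27 at -0.28 and 0.47.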

How the data were processed

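The authors deposited 1 table of MAS5 signal intensity per probe set for 36 arrays, per the submitters' processing notes; the version is not given in the sources used here. Each array of that deposited intensity table was divided by its 2% trimmed mean and multiplied by 500. The 66 control probe sets were left out, and a probe set was tested with a signal of 100 or more on at least 6 arrays, which left 9322 of 12488. Of these and the untested, 10833 had 1 symbol, 396 several and 1193 none. No table column lacked a sample (0 other columns). Scanner records were read for the scan day alone (9 days). Groups came from sample titles.

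Log2(signal + 50) was fitted with limma 3.58.1 in R 4.3.3 on 10 means of muscle and genotype with an age effect per muscle, an intensity trend in the variance, and Benjamini-Hochberg adjustment over all tested probe sets. Genotype by age used 20 means. The fit was tested on simulated data. Arrays were compared in 630 pairs, none identical, with the highest correlation 0.972. The number of arrays limits the precision. Alternatives were the pseudocount, the filter, quantile normalization, median centring, blocks, single numbers and arrays left out. The members and lists were chosen with earlier results of these data known. Any member could be named. The plan was to name up to 8 members past the threshold each way, or the 4 largest each way where fewer than 3 passed. It also took in the 3 highest and lowest in signal and, of other lists, up to 3 called genes. Within single muscles it was not followed in full. Large changes were left out, such as Rpl35a at -0.76 ± 0.35 in tibialis anterior and Rpl32 at -0.86 ± 0.49 in EDL. In EDL and plantaris, members were named because their arrays did not overlap between the genotypes.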

Additional observations from a re-analysis of the deposited data

Results flagged for a closer look

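Each of the 21 bright genes was examined by Dixon's test in groups of 4 arrays of 1 muscle and genotype, which made 126 sets. An array stood far from the rest in 7 of the 126 sets, and chance alone gives about 1 in 20. The sets share arrays and are not independent. All 7 flags fell on arrays of replicate number 2, and some arrays were flagged more than once. The same transgenic diaphragm array of 10 months was flagged for Rps10 and Rpl37a. The same transgenic tibialis anterior array of 7 months was flagged for Rpl8 and Rpl10a. Rpl8 was high on 1 array of transgenic tibialis anterior, at 10012, where the others lay between 7915 and 8127. It was also high on 1 array of wild-type gastrocnemius, at 13148, where the others lay between 10722 and 10904. Rpl6 was high on 1 array of transgenic gastrocnemius, at 10155, with the others between 7251 and 7657. Rpl37a was high on 1 array of transgenic diaphragm, at 7157, with the others between 3866 and 4231. Rps10 was low on 1 array of transgenic diaphragm, at 2713, with the others between 5781 and 6056. Rpl10a was low on 1 array of transgenic tibialis anterior, at 2054, with the others between 3963 and 4502. Rps7 was low on 1 array of wild-type diaphragm, at 5890, with the others between 8505 and 9064. No cause was tested.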

How the results depend on the processing

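Counts of called members moved in 4 of the 11 comparisons, most often over the wild-type muscles, and the cause was not tested. In the test over the wild-type muscles (1 member) the count was 0 with no filter, quantile normalization, median centring, the scan day as a block, either replicate number alone, 7-month arrays only or the 2 arrays of high Gapdh ratio left out. It was 3 (Rplp0, Rps28 and Rps29) with the replicate block and with the random block of genotype, age and replicate number. With both genotypes it was 1, Rps29 in place of Rplp0. For wild-type diaphragm against limb (1 member) it was 0 with quantile normalization, the scan day, either number alone or 7-month arrays only, and 2 (Rplp0 and Rps29) with both genotypes. The genotype mean (0) gave 1, Rps29, with the replicate block and 2, Rpl32 and Rps29, with the scan day, and genotype in diaphragm (0) gave 1, Rpl32, with the scan day. The change of Rplp0 in diaphragm was -0.42 with the scan day (adjusted p = 0.112, limma) and -0.60 within number 1 (adjusted p = 0.0523, limma). It was -0.30 within number 2 and -0.39 with 7-month arrays only (adjusted p = 0.158, limma). Leaving out 1 array gave -0.61 to -0.37, with the call lost in 1 of 36 cases. The bright median in diaphragm was -0.03 after quantile normalization. Leaving out 1 array gave 0 to 1 calls over the wild-type muscles, 0 to 2 for diaphragm against limb, 0 to 1 for genotype in diaphragm and 0 to 0 for the other 8 comparisons. The labels do not say what the replicate numbers share. Same-numbered arrays mostly deviated together (median correlation 0.33 between groups, 117 of 120 over 0.1, lowest 0.0066), and since 3 fell short the number was kept out of the fit reported. Differences between the numbers therefore remain in the spread of that fit, and its lack of called members between the genotypes holds for that fit only. In the genotype mean the replicate block moved all calls on the array to 594 of 9322 probe sets, against 109 without it, with 1 of 31 members called. The scan day moved them to 973, with 2 of 31 members called. Genotype by age could not be fitted within 1 number or without an array that is alone in its group. The 7-month and both-genotype settings were chosen after seeing the data. Dim members near the limit of 100 give little precision.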
